A study of Saccharomyces cerevisiae with 24 samples.

Results

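The 5 isocitrate dehydrogenase genes of budding yeast, IDH1, IDH2, IDP1, IDP2 and IDP3, were followed across 3 strains and 2 media. They were found by the systematic gene names printed in the array files (YNL037C, YOR136W, YDL066W, YLR174W and YNL009W), each with 1 probe, so that 5 of the 6256 probes on the array are described. IDH1 and IDP3 lie on chromosome XIV, IDH2 on XV, IDP1 on IV and IDP2 on XII. All 5 probes were among the 5641 whose mean intensity reached 200 in at least 1 group and which were therefore tested, and they stood well above background on every array (120 of 120 values).

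Isocitrate dehydrogenases convert isocitrate to 2-oxoglutarate. The NAD-dependent enzyme of the mitochondrial matrix belongs to the TCA cycle and is built from a regulatory subunit, Idh1, and a catalytic subunit, Idh2. The NADP-dependent enzymes each come from a single gene and yield NADPH in a different compartment, Idp1 in mitochondria, Idp2 in the cytosol and Idp3 in peroxisomes, where NADPH is needed to degrade unsaturated fatty acids with double bonds at even positions.

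The 24 one-colour arrays came from haploid MATa cells of the W303 background, which in all 3 strains carry mutant alleles of HIS3, TRP1, URA3, ADE2, LEU2 and CAN1, with 4 biological replicates in each of 6 groups. The strains were the parent JYL03 (WT), a deletion of the transcription factor gene SEF1 (sef1, sef1Δ::NatMX4, strain W303ScSef1NA1) and a strain whose Sef1 carries the viral VP16 activation domain at its C terminus (SEF1-VP16, SEF1-VP16::FRT, strain W303ScSef1VP16NB1-4). Each mutant is represented by 1 named strain, so a difference between strains is a difference from that isolate. Cells from overnight glucose cultures were diluted to 0.2 OD600/ml and grown for 5.5 h at 30 °C to early log phase in yeast extract and peptone with glucose (YPD) or glycerol (YPGly), both supplemented with adenine and tryptophan. In such bulk RNA, fewer expressing cells and less RNA per cell cannot be told apart. SEF1 itself was well above background on 16 of 16 WT and SEF1-VP16 arrays and on 0 of 8 sef1 arrays. Of the mating type genes, all 5 a-specific ones were well above background on all 24 arrays, whereas the α-specific MF(ALPHA)1 and MF(ALPHA)2 were so on 14 and 6 arrays and STE3 on 24. All 6 genes of growth without glucose were higher on every YPGly array than on every YPD array, and both glucose-induced hexose transporter genes were lower. The arrays lay on 3 slides with 1 group per row. WT and sef1 shared a slide in YPD, and sef1 and SEF1-VP16 shared another in YPGly. On the remaining slide SEF1-VP16 from YPD was paired with WT from YPGly. Any other pair of groups was hybridised on different slides.

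Levels below are log2 intensities less the 75th percentile of the same array, so a level above 0 is brighter than 75% of the probes. They compare groups for 1 gene and do not rank genes against each other. A difference was called when the limma p-value, adjusted by Benjamini-Hochberg over the 5641 probes, was under 0.05 and the change was at least 1.5-fold. Fold changes are given as log2 values ± SE with n = 4 per group, and group means as mean ± SD.

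IDH1, the regulatory subunit gene, separated all 6 groups. In YPD its level on the 4 WT arrays was 1.34, 1.43, 1.29 and 1.57. On the sef1 arrays it was 0.68, 0.62, 0.59 and 0.77. On the SEF1-VP16 arrays it was 4.17, 4.39, 4.72 and 4.58. The deletion strain was thus the lowest, the activator strain the highest, and no array of one strain reached the range of another. In YPGly the level was 3.24, 3.50, 3.11 and 3.48 in WT. It was 2.76, 2.76, 2.92 and 2.98 in sef1. It was 5.36, 4.91, 4.83 and 5.01 in SEF1-VP16. The order of the strains was the same in glycerol, again without overlap. From the lowest group (sef1 in YPD) to the highest (SEF1-VP16 in YPGly) the group means spanned 4.36 log2 units, and no neighbours in the order of the 6 groups overlapped.

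IDH2, the catalytic subunit gene, shared the high levels in SEF1-VP16 but not the order of the other strains. In YPD its level was 1.62, 1.72, 1.74 and 1.56 in WT. It was 2.09, 2.15, 2.11 and 2.05 in sef1. It was 3.98, 4.37, 4.64 and 4.55 in SEF1-VP16. In glucose, every sef1 array was therefore above every WT array, which is the reverse of IDH1. In YPGly the level was 2.61, 2.93, 2.52 and 3.04 in WT. It was 2.50, 2.41, 2.58 and 2.55 in sef1. It was 5.02, 4.79, 4.61 and 4.77 in SEF1-VP16. WT and sef1 overlapped in glycerol, as did SEF1-VP16 between the media. The group means spanned 3.14 log2 units.

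**Figure D1:**
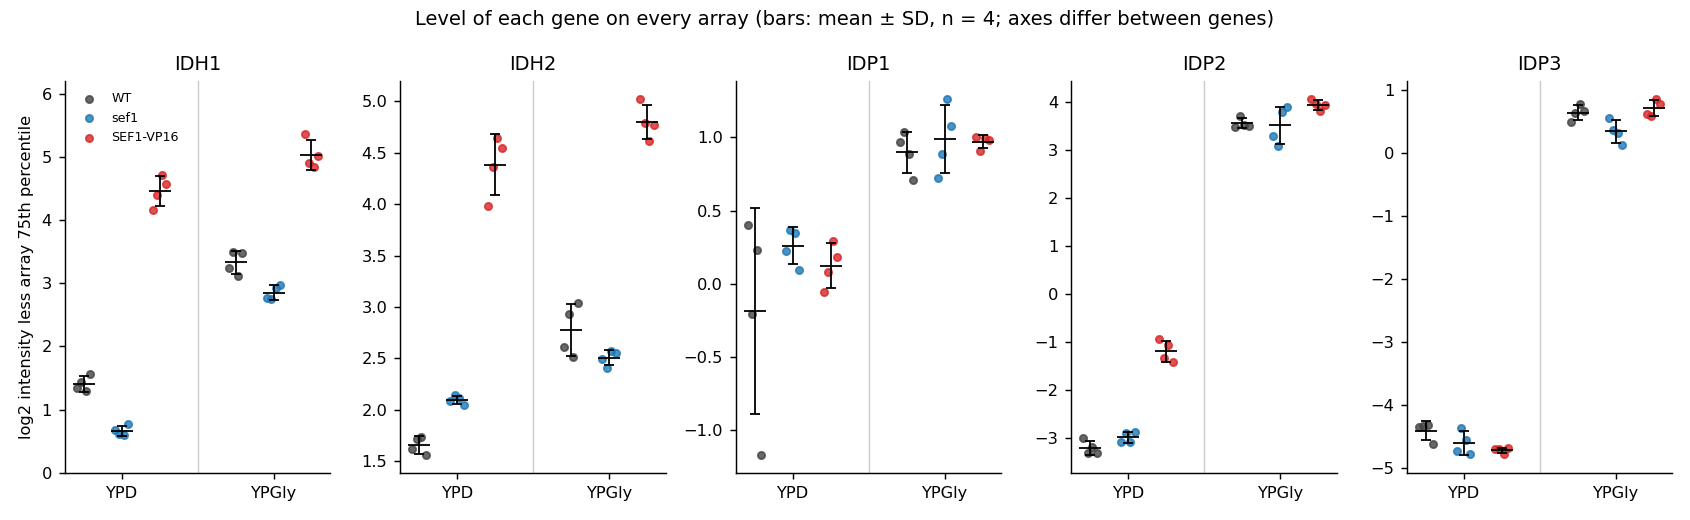
Level of each gene on every array (vertical axis, log2 intensity less the array's 75th percentile) by medium and strain, with black bars for mean ± SD of 4 arrays and a separate scale for each gene. IDH1 and IDH2 were highest in SEF1-VP16 in both media, whereas IDP1, IDP2 and IDP3 were higher on every YPGly array than on every YPD array.

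IDP1, for the mitochondrial NADP enzyme, varied least, with group means spanning 1.17 log2 units. In YPD the WT arrays read 0.40, −0.21, 0.23 and −1.17, a spread (SD 0.70) that came with both spots of replicate 4 being dim and unmarked. The sef1 arrays lay between 0.10 and 0.37 and the SEF1-VP16 arrays between −0.06 and 0.29, inside the WT range. In YPGly the 3 strains had means of 0.90 ± 0.14 (WT), 0.99 ± 0.23 (sef1) and 0.97 ± 0.04 (SEF1-VP16), and their ranges overlapped.

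IDP2, for the cytosolic enzyme, covered the widest span of the 5 genes, 7.16 log2 units. In YPD its level was −3.00, −3.33, −3.20 and −3.32 in WT. It was −3.10, −2.90, −3.09 and −2.89 in sef1. It was −0.95, −1.33, −1.08 and −1.42 in SEF1-VP16. WT and sef1 overlapped, and SEF1-VP16 stood above both without overlap. In YPGly the level was 3.49, 3.72, 3.53 and 3.51 in WT. It was 3.30, 3.09, 3.79 and 3.89 in sef1. It was 4.07, 3.96, 3.82 and 3.94 in SEF1-VP16. All glycerol arrays were far above all glucose arrays, and within glycerol SEF1-VP16 cleared WT but overlapped sef1.

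IDP3, for the peroxisomal enzyme, was ordered by the medium. In YPD the means were −4.41 ± 0.15 in WT, −4.61 ± 0.19 in sef1 and −4.72 ± 0.04 in SEF1-VP16. In YPGly they were 0.64 ± 0.11, 0.34 ± 0.18 and 0.71 ± 0.13. Within either medium the neighbours in the order of levels overlapped, and the SEF1-VP16 arrays in YPD (−4.78 to −4.69) lay below the WT arrays (−4.63 to −4.32). Its span was 5.43 log2 units.

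Deletion of SEF1 was compared with WT to ask how far the genes need the factor. In YPD, where the strains shared a slide, 1 of 5 genes was called against 0.674% of all probes. IDH1 fell by 0.74 ± 0.07 (1.67-fold, limma adjusted p = 0.0013), with rank 6 from the lowest of the 5641 probes. IDH2 was higher by 0.44 ± 0.06 with an adjusted p of 0.0062 in limma, which passed the p threshold but at 1.36-fold not the fold minimum. The 2 subunit genes of 1 enzyme thus differed from WT in opposite directions. IDP1 (0.45 ± 0.29), IDP2 (0.22 ± 0.09) and IDP3 (−0.20 ± 0.10) were not called, and without WT replicate 4 the value for IDP1 was 0.12.

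In YPGly, 0 of 5 genes were called between sef1 and WT, against 0.798% of all probes. IDH1 was lower by 1.39-fold (−0.48 ± 0.10, limma adjusted p = 0.027), under the fold minimum. IDH2 (−0.27 ± 0.11) and IDP3 (−0.30 ± 0.10) had values below 0 and IDP1 (0.09 ± 0.12) and IDP2 (−0.04 ± 0.16) values near 0, with adjusted p from 0.11 to 0.91. The 95% interval for IDP2 ran from −0.40 to 0.31, and that for IDP1 from −0.17 to 0.34. The strains lay on different slides here. When slide was added to strain and medium, the model returned the YPD estimates by construction, at which IDH2 was higher in sef1 (0.44) instead of lower.

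SEF1-VP16 was compared with WT to ask which genes a hyperactive factor can raise. In YPD, 3 of 5 genes were called, all higher, against 9.15% of all probes in either direction. IDH1 rose 8.32-fold (3.06 ± 0.11, limma adjusted p = 2e-07) with rank 4 from the top of the 5641 probes. IDH2 rose 6.61-fold (2.72 ± 0.13, limma adjusted p = 1.1e-06) with rank 7. IDP2 rose 4.06-fold (2.02 ± 0.11, limma adjusted p = 3.3e-06) with rank 10. IDP1 was not called (0.31 ± 0.29), and without WT replicate 4 its value was −0.02. IDP3 was lower (−0.31 ± 0.07, limma adjusted p = 0.0069) by 1.24-fold and so under the fold minimum.

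In YPGly, 2 of 5 genes were called, both higher in the activator strain, against 1.1% of all probes. IDH2 rose 4.06-fold (2.02 ± 0.13, limma adjusted p = 1.5e-05) and IDH1 rose 3.24-fold (1.69 ± 0.13, limma adjusted p = 5.6e-05). IDP2 was higher by 1.30-fold (0.38 ± 0.08, adjusted p = 0.035 in limma), short of the fold minimum. IDP1 (0.07 ± 0.08) and IDP3 (0.07 ± 0.08) were not called, with 95% intervals from −0.10 to 0.24 and from −0.12 to 0.26. SEF1-VP16 and WT shared no slide in either medium. A model that includes slide gives a single difference common to both media, estimated as 1.43 for IDH1, 2.73 for IDH2 and 0.65 for IDP2, all 3 called.

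Against sef1 instead of WT, 3 of 5 genes were called higher in SEF1-VP16 in YPD (3.14% of all probes called) and 2 of 5 in YPGly (3.08%). In YPD, IDH1 rose 13.9-fold (3.80 ± 0.10, limma adjusted p = 1.4e-09), IDH2 4.87-fold (2.28 ± 0.12) and IDP2 3.48-fold (1.80 ± 0.10), while IDP1 (−0.13 ± 0.08) and IDP3 (−0.11 ± 0.08) were not called. In YPGly, where these strains shared a slide, IDH2 rose 4.89-fold (2.29 ± 0.09, limma adjusted p = 1e-07) and IDH1 4.51-fold (2.17 ± 0.11). IDP3 was higher on every SEF1-VP16 array than on every sef1 array in YPGly (0.37 ± 0.10, limma adjusted p = 0.023) but stayed under the fold minimum. IDP2 overlapped (0.43 ± 0.16, limma adjusted p = 0.079), and the 95% interval for IDP1 ran from −0.25 to 0.21. With slide included, IDP2 in YPD was no longer called (0.43, which is the YPGly estimate). The comparisons with WT and with sef1 share the SEF1-VP16 arrays and are not independent.

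**Figure D2:**
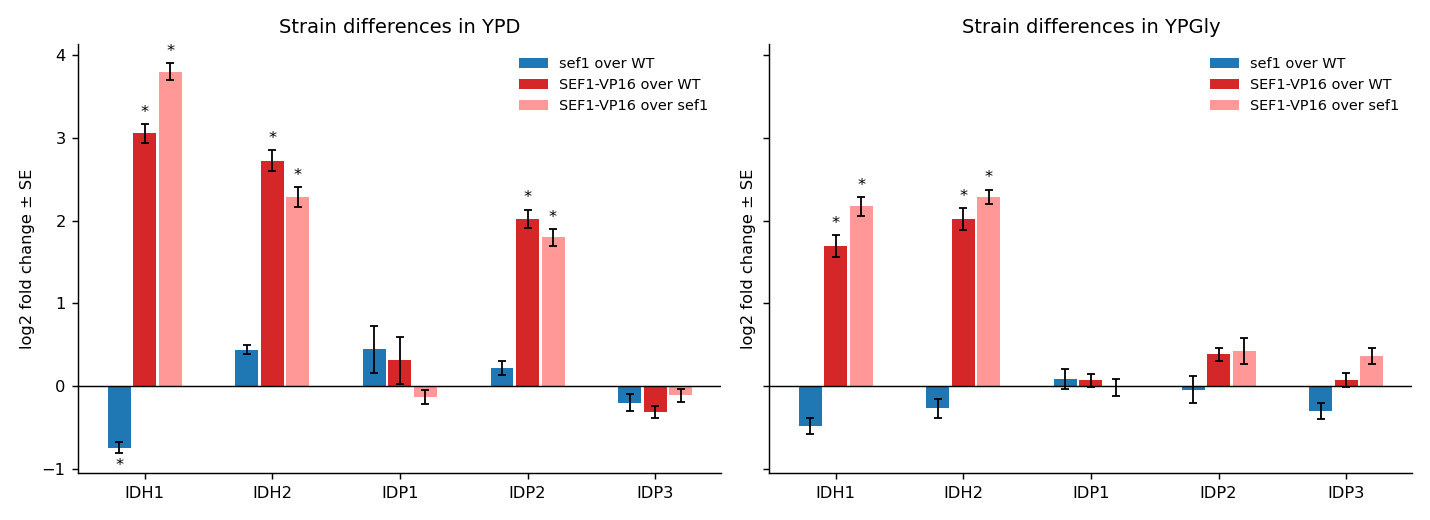
Log2 fold change ± SE (vertical axis) of the 5 genes between strains in YPD (left) and YPGly (right), from 4 arrays per group, with a star for each called difference. In YPD the stars fall on IDH1, IDH2 and IDP2 in SEF1-VP16 and on IDH1 in sef1, and in YPGly on IDH1 and IDH2 in SEF1-VP16.

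The signals of IDH1 and IDH2 in SEF1-VP16 were near the bright end of the arrays. IDH1 reached 66.5 to 74.3% of the intensity of the brightest probe on the same array in YPD and 69.3 to 83.7% in YPGly. IDH2 reached 62.8 to 69.6% and 54.6 to 71.8%. In WT the highest values were 30.8% for IDH1 and 22.8% for IDH2, both in YPGly. No spot was marked as saturated. The mean unscaled intensity of IDH1 in SEF1-VP16 was 316251 in YPD and 291962 in YPGly, whereas its level scaled to the 75th percentile was higher in YPGly. Whether brightness compressed these differences was not tested.

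The change of medium was then read within each strain. In WT all 5 genes were called higher in YPGly, as part of a large response in which 39.2% of all probes were called in either direction. IDP2 rose by 6.78 ± 0.09 on the log2 scale (limma adjusted p = 2.9e-12), with rank 9 from the top of all probes, and IDP3 rose 33.1-fold (5.05 ± 0.09). IDH1 rose 3.80-fold (1.93 ± 0.10), IDH2 2.17-fold (1.12 ± 0.12) and IDP1 2.12-fold (1.09 ± 0.28). The cytosolic and peroxisomal genes thus had by far the larger values. Each of the 5 genes was without overlap between the media, but the share of all probes without overlap was not counted. In this comparison 4039 of 5641 probes passed the adjusted p threshold alone. Omission of WT replicate 4 in YPD took IDP1 to 0.76, which was still called.

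In sef1, 4 of 5 genes were called higher in YPGly (38.8% of all probes called). IDP2 rose 91.3-fold (6.51 ± 0.16), IDP3 30.9-fold (4.95 ± 0.11), IDH1 4.56-fold (2.19 ± 0.07) and IDP1 1.66-fold (0.73 ± 0.11). IDH2, with a higher level in sef1 than in WT in YPD, was higher by 1.33-fold (0.41 ± 0.05, limma adjusted p = 2.7e-05) and missed the fold minimum. In SEF1-VP16, 3 of 5 genes were called higher (41.4% of all probes called), and these were the 3 NADP-dependent ones. IDP3 rose 43.0-fold (5.43 ± 0.07), IDP2 35.3-fold (5.14 ± 0.10) and IDP1 1.80-fold (0.85 ± 0.07). IDH1 (0.56 ± 0.14, 1.48-fold) lay just under the fold minimum, and it was called when replicate 2 (0.60) or 3 (0.63) of SEF1-VP16 in YPGly or replicate 3 (0.65) or 4 (0.60) in YPD was omitted. It was also called when arrays were scaled to their median (0.59). IDH2 (0.41 ± 0.14) overlapped between the media. In each strain the media were on different slides. A model with slide takes the medium difference to be the same in every strain. It is fixed by the differences within slides, none of which compares the media in 1 strain. The value shared by the strains was 0.30 for IDH1, which was not called. This is not a new estimate of the rise of IDH1 in WT or sef1. The shared value was 1.12 for IDH2, 1.20 for IDP1, 5.40 for IDP2 and 5.53 for IDP3, all 4 called.

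**Figure D3:**
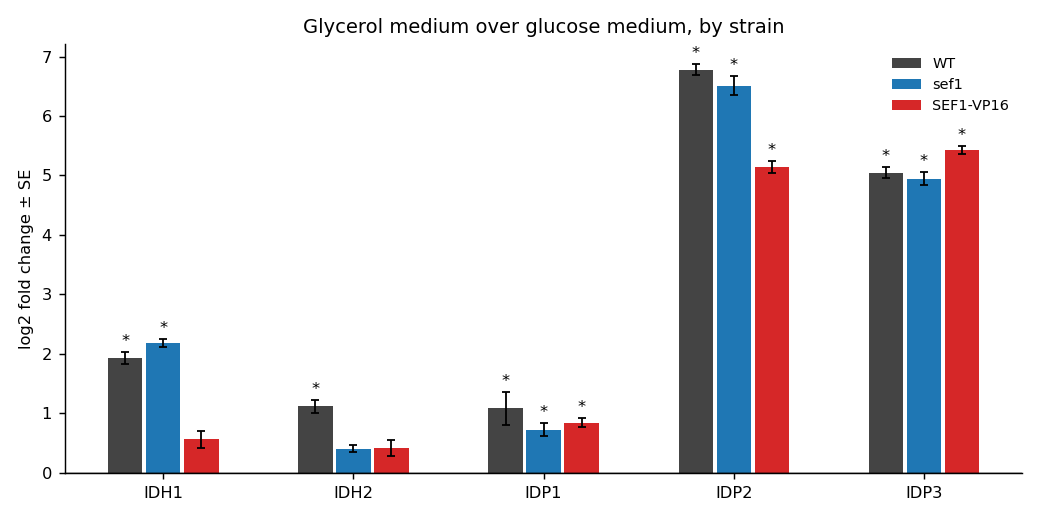
Log2 fold change ± SE (vertical axis) of YPGly over YPD for each gene within WT, sef1 and SEF1-VP16, from 4 arrays per group, with a star for each called difference. IDP2 and IDP3 rose by 4.95 to 6.78 in every strain, whereas the NAD-dependent genes were not called in SEF1-VP16.

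A test of the difference of these differences asked whether the strain effects depended on the medium. For SEF1-VP16 against WT, 3 of 5 genes were called, all with a smaller strain difference in YPGly (10.6% of all probes called). The strain difference was smaller in YPGly by 1.64 ± 0.14 for IDP2 (−1.64, limma adjusted p = 2e-06), by 1.36 ± 0.18 for IDH1 (−1.36, limma adjusted p = 7.9e-05) and by 0.70 ± 0.19 for IDH2 (−0.70, limma adjusted p = 0.012). The IDH2 call was lost when arrays were scaled to their median (−0.58). IDP3 had a value in the other direction (0.38 ± 0.11, limma adjusted p = 0.02), under the fold minimum, and IDP1 was not called (−0.24 ± 0.32). For SEF1-VP16 against sef1, 2 of 5 were called, IDH1 (−1.63 ± 0.16, limma adjusted p = 3.1e-06) and IDP2 (−1.37 ± 0.21, limma adjusted p = 0.00012), with 8.62% of all probes called. IDH2 stood at 0.00 ± 0.16 there, with a 95% interval of −0.33 to 0.34, and with quantile normalization it was −0.29. IDP3 again had a value above 0 (0.48 ± 0.13, adjusted p = 0.011 in limma) that missed the fold minimum, and with normexp background correction it was called (0.62). IDP1 was not called (0.12 ± 0.14). For sef1 against WT, 1 of 5 was called (0.886% of all probes), IDH2 (−0.71 ± 0.13, limma adjusted p = 0.014), which was above WT in YPD and below it in YPGly. IDH1 did not pass (0.26 ± 0.13, adjusted p = 0.31 in limma), nor did IDP1 (−0.36 ± 0.33), IDP2 (−0.26 ± 0.20) or IDP3 (−0.10 ± 0.15). Every strain changed slide between the media, so medium dependence and slide cannot be told apart for these values.

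SEF1-VP16 in glucose was also set against WT in glycerol, 2 groups of 1 slide, to place the activator strain beside cells grown without glucose. All 5 genes were called, 2 higher and 3 lower, against 41.2% of all probes. The NAD-dependent genes were higher in SEF1-VP16 in YPD, IDH1 by 2.19-fold (1.13 ± 0.13, limma adjusted p = 1.2e-05) and IDH2 by 3.05-fold (1.61 ± 0.16, limma adjusted p = 4.1e-06). The NADP-dependent genes were lower, IDP1 by 1.71-fold (−0.78 ± 0.09), IDP2 by 27.0-fold (−4.76 ± 0.10) and IDP3 by 41.0-fold (−5.36 ± 0.07). IDP2 was thus above WT in glucose and still far from its level in glycerol. The strain and the medium both differ in this comparison.

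The NAD-dependent and NADP-dependent genes were next set against each other within each array, after each gene was centred on the mean of its 6 group means. The mean of IDH1 and IDH2 less the mean of the 3 IDP genes was 0.84 ± 0.35 in WT, 0.53 ± 0.12 in sef1 and 3.06 ± 0.26 in SEF1-VP16 in YPD. In YPGly it was −1.94 ± 0.23, −2.23 ± 0.07 and −0.26 ± 0.19 (n = 4 each). Every SEF1-VP16 array in YPD (2.68 to 3.24) was above all arrays of the other groups, and every SEF1-VP16 array in YPGly (−0.46 to 0.00) lay between the YPD and the YPGly arrays of the other strains. WT and sef1 overlapped in either medium. These are descriptions without a test.

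The same measure was also taken with 1 NADP gene at a time. Against IDP2 the measure was 2.35 ± 0.20 in WT and 3.22 ± 0.41 in SEF1-VP16 in YPD, the smallest step between these strains of the 3 genes. Against IDP3 it was 0.94 ± 0.17 and 4.14 ± 0.29. Against IDP1 it was −0.77 ± 0.74 and 1.81 ± 0.12, and in YPGly −0.33 ± 0.28 and 1.45 ± 0.19. In YPGly it was −2.90 ± 0.19 in WT and −1.43 ± 0.11 in SEF1-VP16 against IDP2. Against IDP3 it was −2.59 ± 0.26 and −0.80 ± 0.30 there. Against each of the 3 NADP genes SEF1-VP16 was therefore above WT in both media without overlap.

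Between the subunit genes, IDH1 less IDH2 read −1.33, −1.45, −1.44 and −1.20 on the sef1 arrays in YPD. On the WT arrays in YPD it read −0.20, −0.21, −0.37 and 0.09. The sef1 arrays in glucose stood below all others. In SEF1-VP16 the mean was 0.16 ± 0.07 in YPD and 0.31 ± 0.09 in YPGly. In YPGly it was 0.64 ± 0.09 in WT and 0.42 ± 0.07 in sef1. WT was above sef1 in glycerol as well, but by a much smaller step than in glucose. There the ranges only just cleared each other (lowest WT array 0.514, highest sef1 array 0.503), and the strains lay on different slides.

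**Figure D4:**
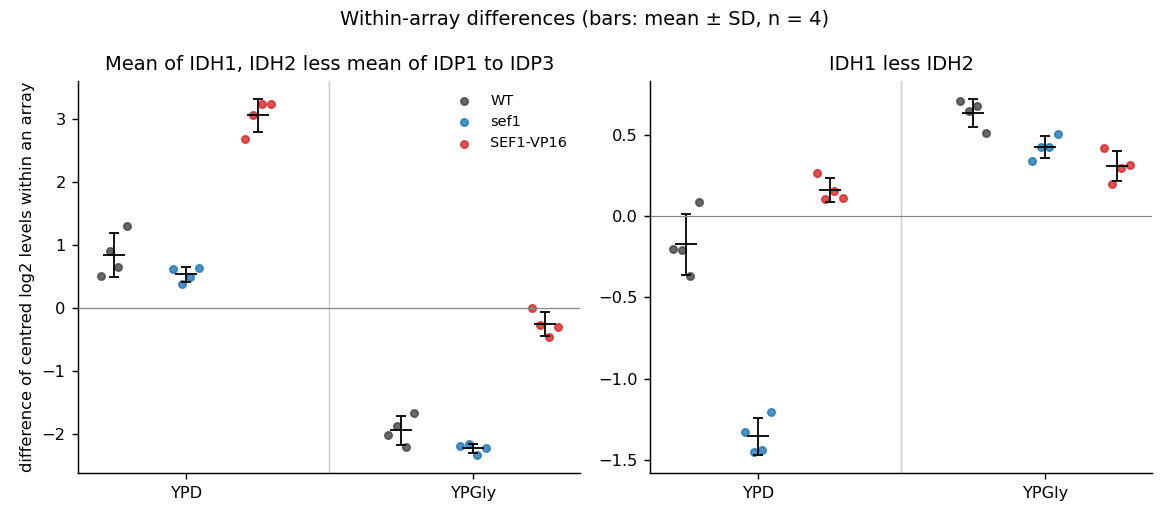
Differences of centred log2 levels within each array (vertical axes) for the mean of IDH1 and IDH2 less the mean of IDP1, IDP2 and IDP3 (left) and for IDH1 less IDH2 (right), by medium and strain, with bars for mean ± SD of 4 arrays. SEF1-VP16 in YPD (3.06) and sef1 in YPD (−1.36) stand apart in the left and right panel.

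The genes most like each member were taken as the 3 probes with the smallest root mean square difference between their centred group means over the 6 groups, among 5640 other tested probes. For IDH2 these were YOR135C (0.13 log2 units), ISA1 (0.25), which acts in iron-sulfur cluster assembly, and PEX21 (0.36), which acts in peroxisomal protein import. YOR135C is by its systematic name the neighbour of IDH2 (YOR136W) on the opposite strand, and whether the 2 probes read 1 transcript was not tested. The same 3 genes were nearest to IDH1 in the order PEX21 (0.46), ISA1 (0.61) and YOR135C (0.64), with IDH2 at rank 4 (0.65), while IDH1 was at rank 8 for IDH2. IDP2 was most like MLS1 (0.32), the cytosolic malate synthase gene, CIT3 (0.52), a mitochondrial citrate synthase gene, and PHO89 (0.58), a phosphate transporter gene. IDP3 followed HXT5 (0.06), a hexose transporter gene, PMA2 (0.14), a proton pump gene, and FAT3 (0.15). IDP1 had CPS1 (0.06), HIR3 (0.06) and BUD3 (0.07) as nearest genes. Among the members IDP3 was at rank 14 for IDP2 (0.88), while IDP2 was at rank 56 for IDP3. Likeness here describes 6 group means and has no test.

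The surrounding pathways were read from fixed lists, beside a median of all probes between −0.05 and 0.03 in these comparisons. Of all probes, SEF1-VP16 had 9.15% called against WT in YPD and 1.1% in YPGly, and 3.14% and 3.08% against sef1. Between sef1 and WT 0.674% were called in YPD and 0.798% in YPGly. Between the media 39.2% were called in WT, 38.8% in sef1 and 41.4% in SEF1-VP16. These shares belong beside the counts from every list below. In YPD, 2 of 15 other TCA cycle genes were called between SEF1-VP16 and WT, both higher, ACO1 (1.49 ± 0.15), the aconitase that makes isocitrate, and FUM1 (0.73 ± 0.09), the fumarase. The list's median was −0.10, against 2.02 for the isocitrate dehydrogenase genes. In YPGly 2 of 15 were called higher, FUM1 (1.06 ± 0.10) and CIT3 (0.81 ± 0.10), with a median of 0.17. Against sef1, ACO1 (1.44 ± 0.14) and CIT3 (0.70 ± 0.05) were called in YPD. In YPGly CIT3 (1.31 ± 0.08), CIT1 (0.82 ± 0.19), the main citrate synthase gene, ACO1 (0.75 ± 0.22) and FUM1 (0.60 ± 0.18) were. In sef1 against WT, 0 of 15 were called in either medium. With the medium, 13 of 15 rose in YPGly in WT and 13 in sef1, and 12 rose and 1 fell in SEF1-VP16.

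Of 10 genes of NADPH supply, SEF1-VP16 in YPD had 1 called above WT and 2 below, MAE1 (0.70 ± 0.08), the mitochondrial malic enzyme, and GND2 (−0.94 ± 0.08) and SOL4 (−0.91 ± 0.06) of the pentose phosphate pathway. Against sef1 in YPD, SOL4 (−0.72 ± 0.05) and GND2 (−0.61 ± 0.06) were lower, and in YPGly 0 of 10 were called in either comparison. Of 11 genes that use or carry 2-oxoglutarate, YHM2 (0.65 ± 0.08), a mitochondrial citrate and oxoglutarate carrier, was higher than in WT in YPD, and GDH2 (−0.75 ± 0.10) and ODC1 (−0.59 ± 0.06) were lower. In YPGly 0 of 11 were called against WT, and GDH1 (−0.62 ± 0.11), a glutamate dehydrogenase gene, was the 1 called against sef1.

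Of 10 genes of peroxisomal fatty acid oxidation, the pathway IDP3 serves, 10 rose in YPGly in each strain (median 3.97 in WT, 3.51 in sef1 and 4.78 in SEF1-VP16). Against WT in YPD, SEF1-VP16 was lower at POT1 (−1.10 ± 0.08), the thiolase gene, and CTA1 (−0.70 ± 0.06), the catalase A gene, and IDP3 had a value of −0.31. In YPGly 0 of 10 were called against WT. Against sef1 in YPGly 5 of 10 were called higher, led by DCI1 (1.11 ± 0.16), POX1 (0.77 ± 0.11), FOX2 (0.77 ± 0.09) and POT1 (0.76 ± 0.07), where IDP3 had 0.37. Between sef1 and WT, 1 of 10 was called in YPD, POT1, which was lower in sef1 (−0.69 ± 0.09), and 0 of 10 in YPGly.

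Of 14 regulators of these pathways, HAP4, the activating subunit of the respiratory Hap complex, exceeded WT in SEF1-VP16 cells grown in YPD (1.62 ± 0.06) and in YPGly (1.26 ± 0.07), both called. It was also higher than in sef1 in YPD (1.02 ± 0.07) and in YPGly (0.72 ± 0.06). In sef1 it was called higher than WT in YPD (0.61 ± 0.07), where IDH1 was lower and IDH2 higher. CAT8, an activator of growth on non-fermentable carbon, was lower in SEF1-VP16 in YPD (−1.24 ± 0.07 against WT and −0.81 ± 0.06 against sef1), and SIP4 was higher against WT (0.65 ± 0.11). The other regulators were not called in the comparisons of SEF1-VP16 with WT or sef1.

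**Figure D5:**
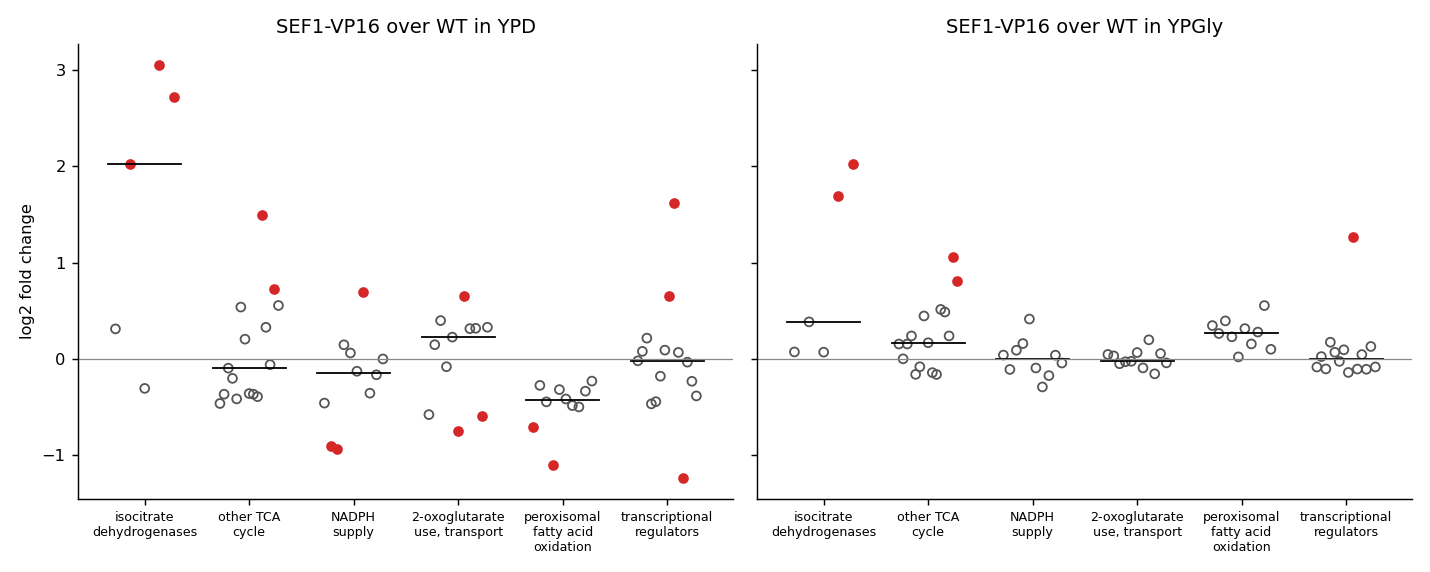
Log2 fold change of SEF1-VP16 over WT in YPD (left) and YPGly (right) for the 5 isocitrate dehydrogenase genes and 5 lists of related genes, each point 1 gene from 4 arrays per group, filled red where called, with a black line at the median. IDH1 (3.06 and 1.69) and IDH2 (2.72 and 2.02) had the highest values shown in both media.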

How the data were processed

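RNA of 24 cultures was hybridised by the study to one-colour Agilent yeast arrays (2 spots for each of 6256 probes). The scanner intensities were deposited as the authors extracted them with Agilent Feature Extraction 10.5.1.1, background-subtracted and otherwise unscaled. A deposited log2 table holds the authors' values after scaling to the 75th percentile, and its 24 columns matched the scanner files to within 2.48e-06 after a constant per array. Here spots marked as outliers were left out (164 in all, 1 of them a member's), spots were averaged as log2, and each array's 75th percentile was subtracted. Those percentiles ranged from 5320 to 16182, and 92.0 to 98.3% of probes stood well above background. The number of arrays limits the precision. Groups were compared with limma 3.58.1 in R 4.3.3, 8 arrays per comparison and 16 for differences of differences, over 5641 probes of mean intensity of at least 200 in 1 group. The method was tested on simulated data. The study's own thresholds (adjusted p under 0.05, at least 1.5-fold) were kept. Systematic names were paired with symbols through a RefSeq R64 table (5756 of 6256 matched), and no coordinates are given because the array annotation is sacCer1. Alternatives were the array median, quantile normalization, normexp (offset 50, on median signals, since no mean signal was used here), the deposited table, marked spots kept, other minimums, 1 fit of all arrays, a replicate block, the methods' t-test, the slide and the omission of each array.

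All 5 members were named in every comparison. The 3 most similar probes per member were named, and from each list at most 4 called genes with the largest change in each comparison of SEF1-VP16 with WT or sef1. The members and lists were chosen with earlier results of these data known. Promoter sequences were not analysed here.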

Additional observations from a re-analysis of the deposited data

Results flagged for a closer look

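In WT in YPD the lowest IDP3 array, replicate 4, stood apart from the other 3, with a gap that was 0.894 of the range of the group. This was 1 of 30 combinations of gene and group examined, of which chance flags about 1 in 20.

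Strain effects that differed between the media were flagged for the 6 values that follow. Relative to YPD, the difference between SEF1-VP16 and WT in YPGly was −1.6364 for IDP2, −1.3628 for IDH1 and −0.7023 for IDH2. The difference between SEF1-VP16 and sef1 was −1.6254 for IDH1 and −1.3726 for IDP2. The difference between sef1 and WT was −0.7073 for IDH2. In each case the media lay on different slides, and for IDH1 and IDH2 the SEF1-VP16 signals were among the brightest 28 probes of their arrays.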

How the results depend on the processing

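The calls of IDH1 and IDH2 in SEF1-VP16 against WT or sef1, and of IDP2 in YPD against WT, held under every alternative run. The model with slide does not re-estimate these differences in YPD, so its calls are no check on them. For IDP2 against WT its value was 0.65 instead of 2.02. Counts of called members moved with the fold minimum. A minimum of 2 took them to 0 for sef1 against WT in YPD and for its medium dependence. It also ended the calls of IDP1 for YPGly against YPD in sef1 (0.73) and SEF1-VP16 (0.85) and for SEF1-VP16 in YPD against WT in YPGly (−0.78), and of the medium dependence of IDH2 for SEF1-VP16 against WT (−0.70). Without a fold minimum, the deletion strain had 2 members called against WT when grown in YPD, and 1 when grown in YPGly. The count for YPGly against YPD in SEF1-VP16 was then 5. Including slide, by construction, gave 1 for sef1 against WT in YPGly, and turned 4 uncalled values, IDH2 (0.4399) and IDP2 (0.2206) in that contrast and IDP3 in SEF1-VP16 in YPD against WT (0.1707) and sef1 (0.3684).

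Values near 0 also changed sign, and the cause was not tested. With quantile normalization these were IDP2 for sef1 against WT in YPGly (0.0378), and the medium dependence of IDP3 for sef1 against WT (0.0279) and of IDH2 for SEF1-VP16 against sef1 (−0.2903, and −0.0217 with normexp). With array medians IDP1 for SEF1-VP16 against sef1 in YPGly was 0.0340. Over omissions of single arrays, IDP1 ranged from −0.0049 to 0.1754 and IDP2 from −0.1677 to 0.0994 for sef1 against WT in YPGly. IDP1 ranged from −0.0171 to 0.5056 for SEF1-VP16 against WT in YPD, from −0.1043 to 0.0760 against sef1 in YPGly, and from −0.4345 to 0.0883 for its medium dependence against WT. The medium dependence of IDH2 against sef1 ranged from −0.1295 to 0.0914.

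The replicate numbers were not taken to pair the cultures. In 0 of 10 comparisons did all same-numbered arrays deviate together (every r over 0.1, with r from −0.44 to 0.55), which does not exclude pairing. With each replicate number once per group, the replicate block cannot change a member's estimate, such as −0.7418 for IDH1 in sef1 against WT in YPD. The block changed 0 calls of members. Of 30 alternative values of the within-array differences, 30 moved by less than 1 SD. Those from the deposited table could not move, because its constant per array cancels within an array. Over all probes, the methods' t-test called 20 instead of 38 for sef1 against WT in YPD, 17 instead of 45 in YPGly, and 33 instead of 62 for SEF1-VP16 against WT in YPGly. Including slide gave 173 for SEF1-VP16 against WT, instead of 516 in YPD and 62 in YPGly. With no intensity minimum the medium dependence of sef1 against WT had 86 calls instead of 50. Under a fold minimum of 2 the counts over the 13 comparisons were 6 to 1144, and with none 103 to 4502. Omitting single arrays gave 20 to 23 for sef1 against WT in YPD in 4 cases, 28 and 77 in YPGly, and 28 to 33 for its medium dependence in 3 cases.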
